A study of Mus musculus with 25 samples.

Results

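The 36 genes described here are cell proliferation genes, chosen by symbol for their known roles in DNA replication and mitosis, out of 23284 genes in the table. Of these, 10 serve DNA replication and nucleotide supply (Rrm2, Tyms, Tk1, Mcm2 to Mcm7 and Pcna) and 26 serve mitosis. The mitotic genes are Cdk1 and the cyclins Ccna2, Ccnb1 and Ccnb2, the kinases Aurka, Aurkb, Bub1, Bub1b, Plk1 and Melk, the spindle and cytokinesis genes Kif11, Kif20a, Kif23, Nusap1, Prc1, Tpx2, Racgap1 and Birc5, the chromosome and kinetochore genes Mki67, Top2a, Cenpe, Cenpf, Ncapg and Ndc80, and the APC/C genes Cdc20 and Ube2c. They were measured by RNA-seq in 25 libraries of whole aorta from male C57/BL6J mice that were 8 weeks old when feeding began. EKO mice lack Apoe, and DKO mice lack both Apoe and Apoa1, so every group lacks Apoe and none is wild type. Each genotype was fed a Western diet (WD) or normal laboratory diet (NLD, labelled chow) for 22 or 6 weeks. The 8 groups held 3 libraries each, except DKO on NLD for 6 weeks, which held 4. The labels mark the 12 EKO libraries as re-analysed from an earlier deposit and give the 13 DKO libraries no such mark, so genotype and deposit cannot be told apart. Levels are in FPKM, a read level per length of transcript that is also corrected for library size.

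A cell that divides first copies its DNA and then separates the copies. Mcm2 to Mcm7 form the helicase that opens the origins, Pcna is the clamp that holds DNA polymerases on the template, and Rrm2, Tyms and Tk1 supply deoxynucleotides. Cyclins bind Cdk1 and drive entry into mitosis, the Aurora and Polo kinases and the kinesins build and use the spindle, and Cdc20 and Ube2c act with the anaphase-promoting complex (APC/C), which marks cyclin B for destruction. In atherosclerotic aorta, macrophages in the plaque and smooth muscle cells can both divide, and thymus, marrow and lymphoid tissue hold many dividing cells.

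Several libraries stood apart, and the results below are given with and without them where they change. The EKO WD 22-week replicate 2 was a partial library, with 17675 genes at 0 against 5509 to 6504 in the other 24, and its zeros were taken as missing. It held a value for 10 of the 36 genes, so most EKO WD 22-week values come from replicates 1 and 3 alone. The other EKO 22-week libraries summed to 448239 to 556933 FPKM, against 360421 to 415555 FPKM in the remaining libraries. Smooth muscle genes marked the tissue as labelled, with Acta2 at 434 to 6251 FPKM and Tagln at 300 to 2860 FPKM in the complete libraries. The table gives no read counts, so depth is unknown. The labels call the libraries of a group replicates and do not name the animals, so p-values measure the spread between libraries.

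The library that most set the level of these genes was DKO WD 6-week replicate 3. All 36 genes were higher in it than in the other 2 libraries of its group, and 25 of the 36 had their highest complete-library value there. For such orders of libraries, here and below, the share of all genes is not given. Mki67, the antigen used to stain cycling cells, stood at 5.34 FPKM in it, against 0.944 and 0.613 FPKM in replicates 1 and 2. Top2a, the topoisomerase that untangles sister chromosomes, stood at 9.72 FPKM, against 1.27 and 0.793 FPKM. Over the 26 mitotic genes the median ratio of this library to the mean of replicates 1 and 2 was 5.64, and over the 10 replication genes it was 2.10. The same library also held the highest values of all 10 thymocyte genes, a list chosen after the values were seen. Rag1, which recombines antigen receptor genes, was at 29.0 FPKM, Dntt at 47.6 FPKM and Cd8a at 37.5 FPKM, and the 10 genes summed to 218 FPKM against 0.762 to 49.4 FPKM in the other complete libraries. It also held the highest value of 6 of the 7 T cell markers. Whether thymic tissue contributed to the proliferation genes was not tested.

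**Figure D1:**
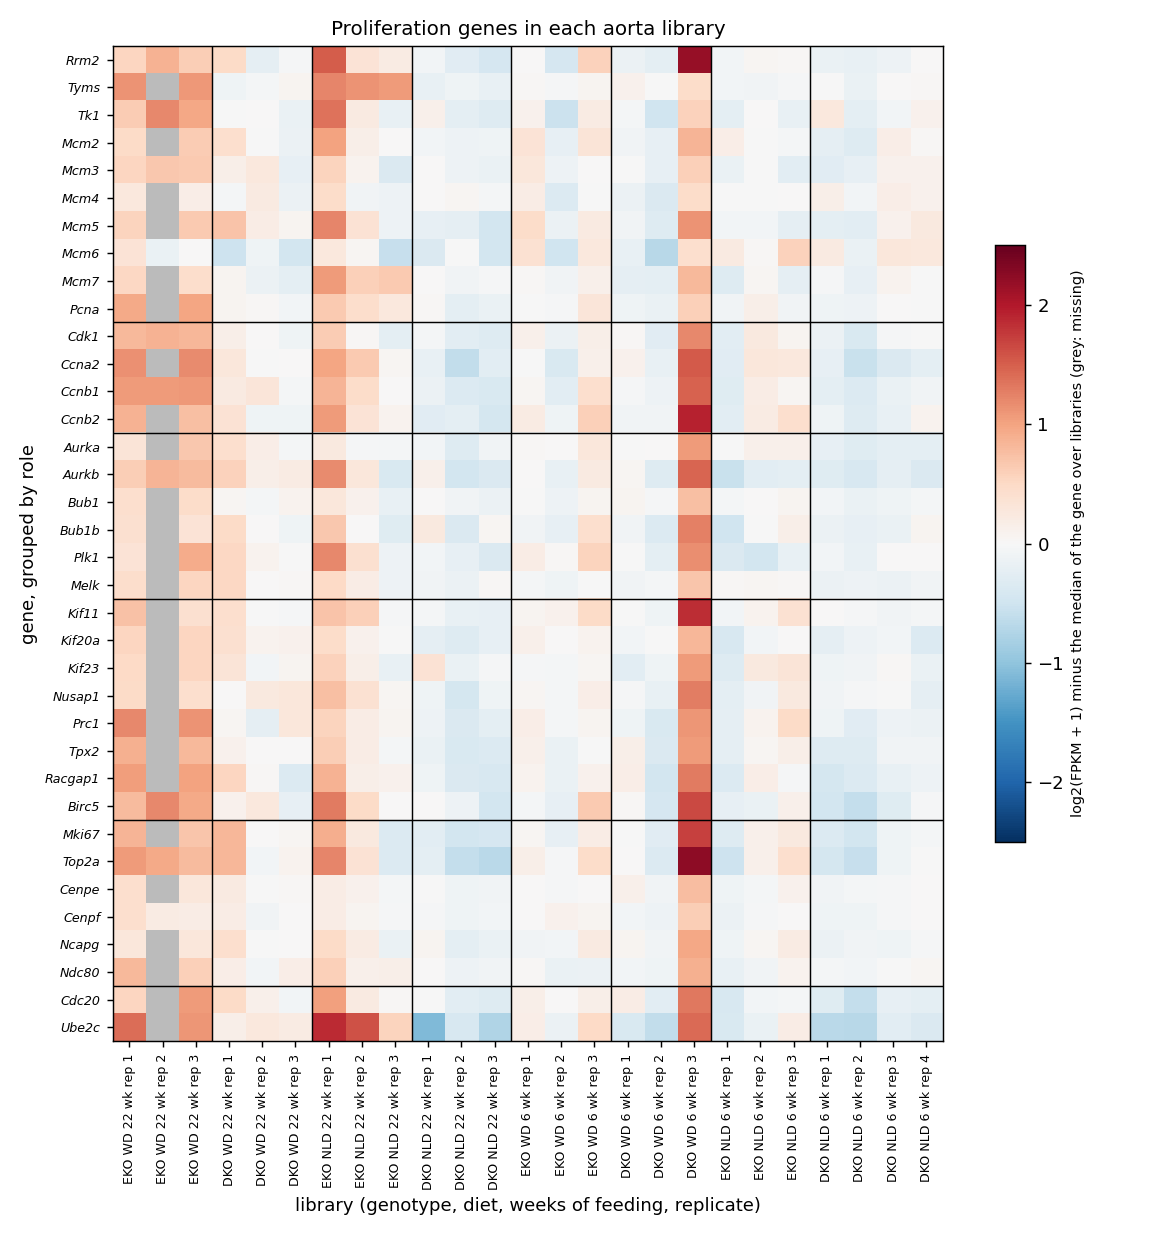
Level of each of the 36 genes (rows, grouped by role) in each of the 25 libraries (columns, by group), as log2(FPKM + 1) minus the gene's median over libraries, with missing values in grey. The column of DKO WD 6-week replicate 3 is high for nearly every gene, and the EKO WD 22-week columns are high for most.

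The genes differed widely in level. Pcna was the highest, with a mean of 34.5 FPKM and a range of 25.6 to 60.6 FPKM over its 24 values. Mcm6 came next at a mean of 10.7 FPKM, followed by Mcm7 at 5.91 FPKM and Mcm3 at 4.92 FPKM. Mitotic genes were low, from a mean of 0.209 FPKM for Cenpf, a kinetochore protein, to 3.24 FPKM for Ube2c, the ubiquitin-conjugating enzyme of the APC/C. The test took genes whose mean was 1 FPKM or more, and 24 of the 36 genes passed. The 12 that did not were Cdk1, Ccnb1, Bub1, Melk, Kif11, Kif20a, Kif23, Nusap1, Cenpe, Cenpf, Ncapg and Ndc80. Their fold changes come from a fit without the filter. Tyms passed at a mean of 1.37 FPKM, with group means of 3.10 and 3.20 FPKM in EKO at 22 weeks and 0.709 to 1.19 FPKM in the other groups. Tpx2 passed at 1.07 FPKM, with its highest group mean, 2.40 FPKM, in EKO on WD for 22 weeks. Both passed through groups in which they are called higher below, and they count in the shares called there. Those shares cannot be read as an excess over all tested genes.

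The promoters of a few of these genes are shown for the motifs they hold. Ube2c, Top2a and Mki67 hold both motifs marked, and Pcna and Prc1, which were called in several comparisons, hold CCAAT alone. The windows are the 250 bases before the RefSeq start listed first for each gene on GRCm38.p6, 5′ to 3′ on the strand of the gene. That start need not be the outermost start. The Mki67 window reaches into the listed gene span, which ends at 135716450, and those of Top2a and Prc1 overlap their spans slightly. Capitals mark CCAAT, the letters bound by the factor NF-Y, and TTTGAA, the letters of the cell cycle homology region through which the DREAM and MuvB complexes act, on either strand. The Ube2c window is chr2:164769679-164769928 on the plus strand, that of Top2a chr11:99024190-99024439 on the minus strand, that of Mki67 chr7:135716380-135716629 on the minus strand, that of Pcna chr2:132253181-132253430 on the minus strand and that of Prc1 chr7:80294201-80294450 on the plus strand.
Ube2c: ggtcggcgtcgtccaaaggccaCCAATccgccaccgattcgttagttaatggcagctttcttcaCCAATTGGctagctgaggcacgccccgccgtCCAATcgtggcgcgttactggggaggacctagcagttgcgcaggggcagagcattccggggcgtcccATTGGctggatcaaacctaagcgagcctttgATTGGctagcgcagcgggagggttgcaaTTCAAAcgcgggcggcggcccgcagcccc
Top2a: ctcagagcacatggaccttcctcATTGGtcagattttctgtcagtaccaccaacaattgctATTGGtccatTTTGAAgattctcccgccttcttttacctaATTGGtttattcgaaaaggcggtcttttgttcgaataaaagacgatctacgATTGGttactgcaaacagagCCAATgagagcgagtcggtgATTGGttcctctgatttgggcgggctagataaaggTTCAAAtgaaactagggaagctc
Mki67: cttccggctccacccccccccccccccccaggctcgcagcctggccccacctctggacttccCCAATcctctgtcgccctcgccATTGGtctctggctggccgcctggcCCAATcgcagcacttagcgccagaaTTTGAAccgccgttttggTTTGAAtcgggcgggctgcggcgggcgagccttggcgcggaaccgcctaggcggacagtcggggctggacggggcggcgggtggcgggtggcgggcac
Pcna: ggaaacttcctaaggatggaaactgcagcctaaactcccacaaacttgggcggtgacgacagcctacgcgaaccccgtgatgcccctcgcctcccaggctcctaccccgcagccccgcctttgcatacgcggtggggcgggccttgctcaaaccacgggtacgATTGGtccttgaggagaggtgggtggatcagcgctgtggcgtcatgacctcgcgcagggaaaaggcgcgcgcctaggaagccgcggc
Prc1: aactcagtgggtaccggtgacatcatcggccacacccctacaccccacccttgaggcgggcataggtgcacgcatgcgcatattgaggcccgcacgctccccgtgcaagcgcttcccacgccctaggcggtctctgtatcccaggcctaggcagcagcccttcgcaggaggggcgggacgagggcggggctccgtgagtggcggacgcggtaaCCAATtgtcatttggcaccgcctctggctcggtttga

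RefSeq windows matched 31 of the 36 genes. Some lie partly inside the listed gene span, and that of Aurka lies wholly inside it. CCAAT or its complement was in 25 of the 31 windows, against 34.5% of the windows of all 27025 symbols and 36% of those of tested genes. TTTGAA or its complement was in 9 of the 31, against 16.3% of all windows and 10.2% of those of tested genes. Both were in 9 of the 31, among them Ube2c, Top2a and Mki67, against 5.73% of all windows and 3.91% of those of tested genes. An E2F-type motif, TTTCCCGC or TTTGGCGC on either strand, was in 3 of the 31, the replication genes Mcm5, Mcm6 and Mcm7. It was in 1.35% of all windows and 2.46% of those of tested genes. None of these motifs was in the Tyms or Tk1 window. In the Ube2c window 2 CCAAT matches on opposite strands overlap, and each gene was counted once. A match is only a description of the letters.

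In EKO mice fed WD for 22 weeks, against DKO mice on the same diet at the same time, 6 of the 24 tested genes rose and none fell. These were Tyms, Tk1 and Pcna of DNA replication, the cyclin Ccna2, and the spindle proteins Prc1 and Tpx2. That is 25% of the tested genes, and 18.5% of all 12849 tested genes rose and 2.92% fell in this comparison. Tyms and Tpx2 passed the filter through EKO 22-week groups, so the 25% cannot be read as an excess over the 18.5%. The median log2 fold change was 0.61 over the 24 genes and 0.10 over all tested genes. Each call was made by limma on log2(FPKM + 1) with a Benjamini-Hochberg adjusted p below 0.05 over all tested genes.

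Pcna was at 59.6 and 60.6 FPKM in EKO, against 31.9, 31.0 and 28.9 FPKM in DKO. Both EKO libraries were above all 3 DKO libraries, and their log2 fold change was 0.95 ± 0.18 (SE, limma adjusted p = 0.000588). Prc1, which bundles the microtubules of the central spindle, was at 3.70 and 3.43 FPKM in EKO, against 1.12, 0.743 and 1.49 FPKM in DKO. The groups did not overlap, with a log2 fold change of 1.12 ± 0.30 (SE, limma adjusted p = 0.0106). Ccna2, the cyclin of S phase and early mitosis, was at 3.93 and 4.05 FPKM in EKO, against 1.73, 1.22 and 1.24 FPKM in DKO. Its log2 fold change was 1.07 ± 0.36 (SE, limma adjusted p = 0.0411). Tpx2, which activates Aurora A on the spindle, was at 2.48 and 2.32 FPKM in EKO and at 1.03, 0.900 and 0.912 FPKM in DKO, with a log2 fold change of 0.80 ± 0.27 (SE, limma adjusted p = 0.0430). Tk1, the thymidine kinase of the salvage pathway, had a value in all 3 EKO libraries, at 3.43, 5.56 and 4.57 FPKM, against 1.80, 1.85 and 1.51 FPKM in DKO. It rose by 1.00 ± 0.31 on the log2 scale (SE, limma adjusted p = 0.0231).

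The classic mitotic markers leaned the same way without passing the test. Mki67 was at 2.53 and 2.16 FPKM in EKO, against 2.48, 0.958 and 1.02 FPKM in DKO, and DKO replicate 1 lay within the EKO values. Its log2 fold change was 0.48 ± 0.43 (SE, limma adjusted p = 0.484). Top2a was at 3.76, 3.39 and 2.95 FPKM in EKO and at 3.05, 1.16 and 1.41 FPKM in DKO, with a log2 fold change of 0.66 ± 0.48 (SE, limma adjusted p = 0.375). DKO WD 22-week replicate 1 was above the other 2 DKO libraries for 24 of the 36 genes, and it also held the highest value of 6 of the 7 B cell markers, with Cd79a at 21.8 FPKM. Cdk1 and Ccnb1, the kinase and cyclin that start mitosis, are among the genes below the filter and had values in all 3 EKO libraries. Ccnb1 was at 2.28, 2.30 and 2.32 FPKM in EKO, against 0.8286, 0.952 and 0.531 FPKM in DKO, and Cdk1 was at 1.68, 1.81 and 1.73 FPKM in EKO, against 0.704, 0.533 and 0.423 FPKM in DKO. In the fit without the filter, over 20236 genes, Ccnb1 rose by 0.91 ± 0.30 (SE, limma adjusted p = 0.0460) and Cdk1 by 0.82 ± 0.27 (SE, limma adjusted p = 0.0416) on the log2 scale. In that fit Ccna2 was no longer called, while Tyms, Tk1, Pcna, Prc1 and Tpx2 were. Ccna2 also lost its call with a pseudocount of 0.1, after rescaling, with the partial library's zeros kept, with the replicate block and without any 1 of the DKO libraries or of EKO replicates 1 and 3.

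Counted over all 36 genes, 24 were higher in every EKO WD 22-week library than in every DKO one, which is 66.7%, and none was lower. Of the 16185 background genes, those with a mean from 0.1 FPKM up, 27.6% were. By role, the 24 were 7 of 10 replication genes, all 4 of Cdk1 and the cyclins, 2 of 6 mitotic kinases, 7 of 8 spindle and cytokinesis genes, 2 of 6 chromosome and kinetochore genes, and both APC/C genes.

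The number of calls turned on single libraries. Where a library of the compared groups is left out, here and below, the share of all tested genes is not given. Leaving out DKO WD 6-week replicate 3, which is in neither group but enters the pooled spread, 12 of the 24 genes rose, and 18.6% of all tested genes did. The added genes were Mcm3, Mcm7, Ccnb2, Racgap1, Birc5 and Ube2c. Leaving out any library of either group gave fewer calls than the full fit, 5 at most, and 3 without DKO WD 22-week replicate 3. The lowest count came without EKO replicate 3, which leaves EKO with 1 library for most genes, as does leaving out EKO replicate 1. With the summed thymocyte genes as a covariate, and the partial library left out, 13 of the 24 rose, and 19.2% of all tested genes did. In EKO WD 22-week libraries the 10 thymocyte genes summed to 5.15 and 7.51 FPKM, against 2.00 to 18.3 FPKM in DKO WD 22-week libraries. Their defining genes did not move one way: Rag2 was at 0.0161 and 0.0135 FPKM in EKO, against 0.0189 to 0.187 FPKM in DKO, Ptcra was at 0.306 and 0.284 FPKM in EKO, against 0.0470 FPKM in DKO replicate 1 and a listed 0 in the other 2, and Rag1 overlapped. The 7 T cell markers summed to 29.8 and 31.1 FPKM in EKO, against 22.6 to 68.5 FPKM in DKO. The 12 macrophage markers summed to 2964 and 3647 FPKM in EKO, against 500 to 795 FPKM in DKO, and 11 of the 12 rose. Of the 7 fibroblast markers 4 rose, and they summed to 3382 and 3135 FPKM in EKO, against 698 to 1977 FPKM in DKO. Of 5 tested neutrophil and marrow markers 3 fell, and the 8 in the list summed to 69.5 and 31.6 FPKM in EKO, against 382 to 964 FPKM in DKO. The part of these cells in the proliferation genes was not tested, and in whole tissue fewer cells of a type and less RNA per cell cannot be told apart.

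**Figure D2:**
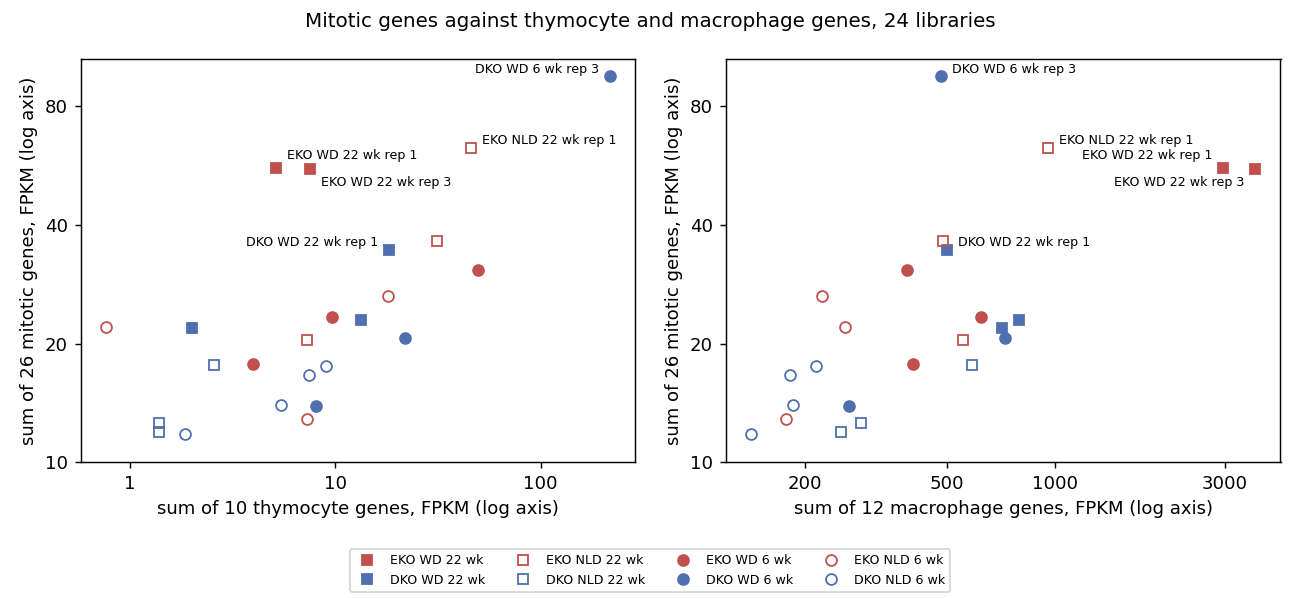
Summed FPKM of the 26 mitotic genes (log axis) against that of 10 thymocyte genes (left) and 12 macrophage genes (right) in the 24 complete libraries, with EKO in red and DKO in blue, WD filled and NLD open, 22 weeks as squares and 6 weeks as circles. DKO WD 6-week replicate 3 has the highest mitotic and thymocyte sums, at 94.9 and 218 FPKM, and the EKO WD 22-week libraries reach mitotic sums of 55.5 and 55.2 FPKM with thymocyte sums of 5.15 and 7.51 FPKM.

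The same EKO libraries were compared with EKO WD libraries at 6 weeks, so the values on one side are shared with the comparison above. Of the 24 tested genes 6 rose with time and none fell, and they were again Tyms, Tk1, Pcna, Ccna2, Prc1 and Tpx2. That is 25%, and of all tested genes 14.8% rose and 4.44% fell. Tyms and Tpx2 again count in the 25%, so it cannot be read as an excess over the 14.8%. The median log2 fold change was 0.72 over the 24 genes and 0.02 over all tested genes. Ccna2 was at 3.93 and 4.05 FPKM at 22 weeks, against 1.22, 0.719 and 1.44 FPKM at 6 weeks, and rose by 1.25 ± 0.36 on the log2 scale (SE, limma adjusted p = 0.0192). Prc1 was at 3.70 and 3.43 FPKM at 22 weeks, against 1.28, 0.963 and 1.14 FPKM at 6 weeks, with a log2 fold change of 1.10 ± 0.30 (SE, limma adjusted p = 0.0128). Mki67 was at 2.53 and 2.16 FPKM at 22 weeks, against 1.02, 0.697 and 1.21 FPKM at 6 weeks. Here its groups did not overlap, yet the log2 fold change of 0.77 ± 0.43 did not pass the test (SE, limma adjusted p = 0.240).

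Over all 36 genes, 30 were higher in every 22-week than in every 6-week EKO WD library, which is 83.3%, against 26.8% of the background genes. The 6 that overlapped were Rrm2, Mcm4, Mcm6, Bub1b, Plk1 and Kif11, and none was lower in every library. All 6 chromosome and kinetochore genes, all 4 of Cdk1 and the cyclins and 7 of the 8 spindle and cytokinesis genes were among the 30. When DKO WD 6-week replicate 3 was left out, 11 of the 24 tested genes rose, and 14.9% of all tested genes did. With the thymocyte covariate 14 rose, Mki67 among them at a log2 fold change of 1.00 (limma adjusted p = 0.0276), and 15% of all tested genes did. Fewer rose without EKO WD 6-week replicate 2 (3 genes). Leaving out EKO WD 22-week replicate 1 or 3 leaves that group with 1 library for most genes, so the counts of those fits are not comparable. The share of all tested genes in these fits is not given, so the lower counts are not read as a trait of these genes. All 12 macrophage markers rose with time here and 4 of the 7 smooth muscle markers fell, and the part of this in the proliferation genes was not tested.

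**Figure D3:**
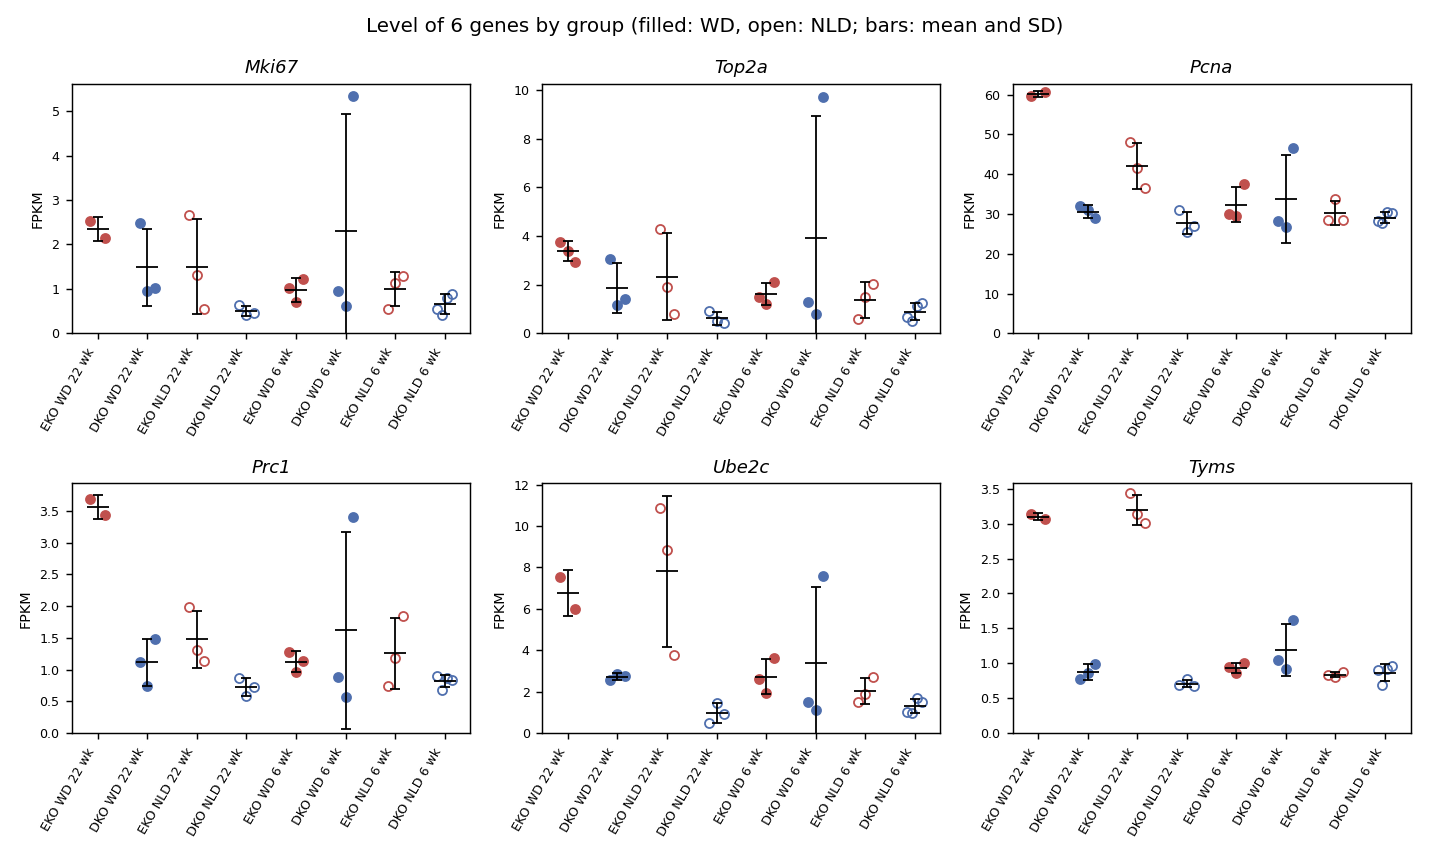
Level in FPKM of Mki67, Top2a, Pcna, Prc1, Ube2c and Tyms in each library (points, EKO in red and DKO in blue) by group, with bars for the mean and SD, cut at 0. DKO WD 6-week replicate 3 is the highest of its group in each panel, for Tyms at 1.62 FPKM against 1.05 and 0.911 FPKM. Tyms is near 3 FPKM in EKO at 22 weeks on both diets.

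On NLD at 22 weeks, 4 of the 24 tested genes rose in EKO over DKO and none fell. They were Tyms, Mcm7, Pcna and Ube2c, or 16.7% of those tested, and of all tested genes 6.4% rose and 1.45% fell. Tyms passed the filter through EKO 22-week groups and counts in the 16.7%. The median log2 fold change was 0.64 over the 24 genes and 0.08 over all tested genes. Ube2c was at 10.9, 8.83 and 3.78 FPKM in EKO, against 0.507, 1.47 and 0.913 FPKM in DKO. The lowest EKO library was above the highest DKO library, and the log2 fold change was 2.10 ± 0.39 (SE, limma adjusted p = 0.00146). Mcm7, a subunit of the replicative helicase, was at 11.99, 8.35 and 8.78 FPKM in EKO, against 5.21, 4.86 and 5.05 FPKM in DKO, with a log2 fold change of 0.81 ± 0.20 (SE, limma adjusted p = 0.0157). Pcna was at 48.1, 41.5 and 36.6 FPKM in EKO, against 30.9, 25.6 and 26.9 FPKM in DKO, with a log2 fold change of 0.58 ± 0.16 (SE, limma adjusted p = 0.0290).

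The 3 EKO NLD 22-week libraries did not hold one level. Replicate 1 was the highest of its group for all 36 genes, and replicate 3 was the lowest for 34. The share of all genes in that order is not given, so the order is not read as particular to these genes. Mki67 was at 2.66, 1.31 and 0.545 FPKM in EKO, against 0.629, 0.414 and 0.465 FPKM in DKO, so that the third EKO library lay within the DKO values. Top2a was at 4.29, 1.91 and 0.796 FPKM in EKO, against 0.903, 0.501 and 0.430 FPKM in DKO. The thymocyte genes ran in the same order over the EKO libraries, summing to 45.8, 31.1 and 7.30 FPKM, against 1.38 to 2.57 FPKM in DKO. EKO replicate 1 had Rag1 at 3.49 FPKM and Dntt at 11.4 FPKM. Ptcra, the pre-T cell receptor chain, was at 1.19, 0.270 and 0.505 FPKM in EKO, and in DKO it was at 0.0362 FPKM in replicate 2 and listed at 0 in the other libraries. The macrophage markers summed to 485 to 959 FPKM in EKO, against 251 to 585 FPKM in DKO. Of 7 tested erythroid markers 6 rose in EKO, and the list summed to 15033 to 33814 FPKM, against 2347 to 7557 FPKM in DKO. The part of these cells in the proliferation genes was not tested.

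Over all 36 genes, 19 were higher in every EKO than in every DKO library on NLD at 22 weeks, which is 52.8%, against 19.3% of the background genes. With the thymocyte covariate 2 of the 24 tested genes rose, Tyms and Ube2c, and 4.32% of all tested genes did. The median over the 24 genes was then 0.01, with 13 of 24 positive, against 0.07 over all tested genes. That covariate was added after the values were seen, and the part of thymic tissue in the shift was not tested. Without EKO NLD 22-week replicate 1, or without DKO NLD 22-week replicate 2, 2 rose. If DKO WD 6-week replicate 3 was left out, 7 rose, with Rrm2, Ccna2 and Ccnb2 added, and 6.48% of all tested genes did. In this comparison the median log2 fold change of tested genes was 0.33 for the 1577 with a longest coding transcript of up to 1.5 kb and -0.01 for the 5847 over 3 kb, a split made after the values were seen, and its part in these results was not tested.

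Between 22 and 6 weeks on NLD in EKO, the same 4 genes rose, which is 16.7% of those tested. Of all tested genes 25.4% rose and 11.2% fell. The median log2 fold change was 0.46 over the 24 genes and 0.12 over all tested genes. Ube2c was at 10.9, 8.83 and 3.78 FPKM at 22 weeks, against 1.502, 1.87 and 2.70 FPKM at 6 weeks, and rose by 1.46 ± 0.39 on the log2 scale (SE, limma adjusted p = 0.00883). Mcm7 was at 11.99, 8.35 and 8.78 FPKM at 22 weeks, against 3.94, 5.41 and 4.28 FPKM at 6 weeks, and rose by 0.94 ± 0.20 (SE, limma adjusted p = 0.00215). Of all 36 genes, 8 were higher in every 22-week library, which is 22.2%, against 29.8% of the background. Of the macrophage markers 9 of 12 rose, and of the smooth muscle markers 5 of 7 fell. Mcm6 leaned the other way, at 13.02, 11.1 and 6.82 FPKM at 22 weeks, against 12.6, 10.8 and 16.4 FPKM at 6 weeks. Without EKO NLD 22-week replicate 3, 7 genes rose, and without DKO WD 6-week replicate 3, 7 rose and 25.5% of all tested genes did. With the thymocyte covariate, Tyms, Mcm7 and Ube2c rose and Mcm6 fell by 0.71 on the log2 scale (limma adjusted p = 0.0109), and 25.7% of all tested genes rose. The median over the 24 genes was then 0.10, against 0.11 over all tested genes. By length, the median log2 fold change of tested genes was 0.51 for short and -0.02 for long transcripts.

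Tyms, the thymidylate synthase that makes the thymidine nucleotide of DNA, had a pattern of its own. It was at 3.14 and 3.06 FPKM in EKO WD and at 3.44, 3.14 and 3.01 FPKM in EKO NLD libraries at 22 weeks. In DKO at 22 weeks it was at 0.770, 0.860 and 0.993 FPKM on WD and at 0.684, 0.772 and 0.672 FPKM on NLD. The values at 6 weeks were 0.943, 0.865 and 1.01 FPKM in EKO WD and 1.05, 0.911 and 1.62 FPKM in DKO WD. On NLD at 6 weeks they were 0.826, 0.802 and 0.876 FPKM in EKO and 0.905, 0.696, 0.912 and 0.956 FPKM in DKO. All 5 EKO 22-week libraries with a value thus lay above every other library, while their mitotic sums ran from 20.4 to 62.6 FPKM. The log2 fold change of EKO over DKO was 1.13 ± 0.12 on WD (SE, limma adjusted p = 1.44e-06) and 1.296 ± 0.11 on NLD (SE, limma adjusted p = 4.34e-08), and that of 22 over 6 weeks in EKO was 1.08 ± 0.12 on WD (SE, limma adjusted p = 2.12e-06) and 1.19 ± 0.11 on NLD (SE, limma adjusted p = 1.51e-07). The table also lists the pseudogene Tyms-ps, at 0.199 to 1.01 FPKM over the complete libraries, and reads shared between them could be split by the counting. The EKO 22-week libraries are also those with the highest total FPKM, and the part of this in the Tyms values was not tested.

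Diet was compared within each genotype. In EKO at 22 weeks 2 of the 24 tested genes rose on WD over NLD, Pcna and Prc1, and none fell. That is 8.33%, and of all tested genes 10.4% rose and 9.14% fell. Pcna was at 59.6 and 60.6 FPKM on WD, against 48.1, 41.5 and 36.6 FPKM on NLD, with a log2 fold change of 0.51 ± 0.18 (SE, limma adjusted p = 0.0482). Prc1 was at 3.70 and 3.43 FPKM on WD, against 1.99, 1.31 and 1.14 FPKM on NLD, with a log2 fold change of 0.89 ± 0.30 (SE, limma adjusted p = 0.0426). The median over the 24 genes was 0.38, and over all tested genes it was -0.06. Of all 36 genes 11 were higher on WD without overlap, which is 30.6% against 19.6% of the background, and Mcm7 was lower. These calls were close to the threshold. None was made without EKO NLD replicate 2 or 3 or without EKO WD replicate 1 or 3, and 4 were made without EKO NLD replicate 1. Omitting DKO WD 6-week replicate 3, 4 rose and 10.4% of all tested genes did. With the thymocyte covariate 9 rose, Mki67 among them, and 11.3% of all tested genes did. The thymocyte genes summed to 5.15 and 7.51 FPKM on WD, against 7.30 to 45.8 FPKM on NLD. All 12 macrophage markers rose, and they summed to 2964 and 3647 FPKM on WD, against 485 to 959 FPKM on NLD. Of the fibroblast markers 4 of 7 rose, with a median log2 fold change of 1.22, and of the adipocyte markers 5 of 6 fell, with a median of -1.60, or 3 without DKO WD 6-week replicate 3. The part of these cells in the Pcna and Prc1 values was not tested.

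In DKO at 22 weeks none of the 24 tested genes passed the test on WD over NLD by limma, and 1, Ube2c, had an unadjusted p below 0.05. Of all tested genes 1.75% passed in either direction. Ube2c was at 2.57, 2.87 and 2.76 FPKM on WD, against 0.507, 1.47 and 0.913 FPKM on NLD, with a log2 fold change of 0.96 ± 0.39 (SE, limma adjusted p = 0.196). Mki67 was at 2.48, 0.958 and 1.02 FPKM on WD, against 0.629, 0.414 and 0.465 FPKM on NLD. The median was 0.33 over the 24 genes and -0.09 over all tested genes. Of all 36 genes 14 were higher in every WD than in every NLD library, which is 38.9% against 6.64% of the background, and none was lower. They were Ccna2, Ccnb1 and Ccnb2, the kinases Aurka, Aurkb and Plk1, Kif11, Kif20a, Nusap1, Tpx2, Mki67, Top2a, Ube2c and the helicase subunit Mcm5. The thymocyte genes summed to 2.00 to 18.3 FPKM on WD, against 1.38 to 2.57 FPKM on NLD, and the macrophage markers to 500 to 795 FPKM, against 251 to 585 FPKM. Of 5 tested neutrophil and marrow markers 3 rose, with a median log2 fold change of 4.10, and the 8 in the list summed to 382 to 964 FPKM on WD, against 10.4 to 41.8 FPKM on NLD. With the thymocyte covariate the median over the 24 proliferation genes was 0.01, with 13 of 24 positive, in place of 0.33 with 22 positive. The part of these cells was not tested. The interaction of diet and genotype at 22 weeks passed for none of the 24 genes by limma, and none had an unadjusted p below 0.05, while 4.39% of all tested genes passed. Its median over the 24 genes was 0.04. With the thymocyte covariate none was called either, but 11 of the 24 had an unadjusted p below 0.05, all higher, and the median was 0.70 with 22 positive, against 0.08 over all tested genes. That covariate was added after the values were seen. A difference in the diet effect between genotypes was not shown at the adjusted threshold in either fit.

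**Figure D4:**
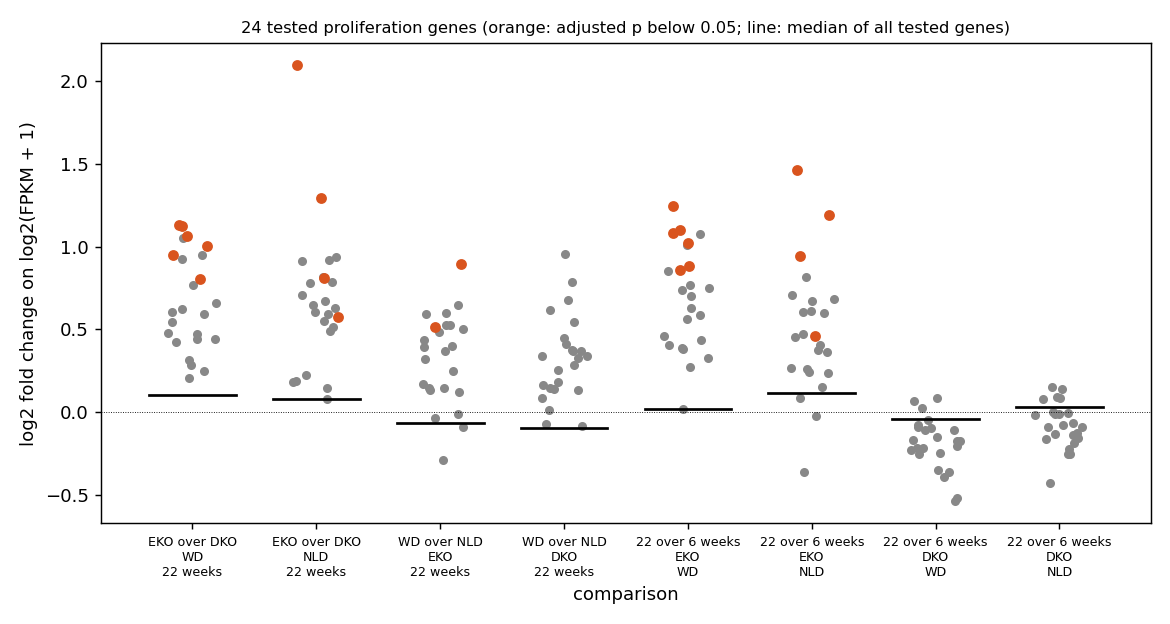
Log2 fold changes on the log2(FPKM + 1) scale of the 24 tested genes (points, orange where the limma adjusted p was below 0.05) in 8 comparisons, with a line for the median of all tested genes. In EKO over DKO at 22 weeks on both diets all 24 lie above 0, and none is called in 22 over 6 weeks in DKO. There most lie below 0, but on WD 23 of the 24 lie above 0 once DKO WD 6-week replicate 3 is left out.

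In DKO the genes did not change detectably between 22 and 6 weeks. None of the 24 passed on WD or on NLD by limma, and none had an unadjusted p below 0.05 on either diet. Of all tested genes 0.226% passed on WD and 0.0545% on NLD. None of the 36 genes was higher in every 22-week library, against 5.12% of the background on WD and 6.77% on NLD. On WD the 6-week group holds replicate 3, which was above its group mates for all 36 genes. The group means are set by it, and the count of genes higher in every 22-week library was nearly fixed by it. Top2a was at 3.05, 1.16 and 1.41 FPKM at 22 weeks, against 1.27, 0.793 and 9.72 FPKM at 6 weeks. With that library 3 of the 24 genes had a positive log2 fold change on WD, with a median of -0.18, and without it 23 had, with a median of 0.23 (over all tested genes, -0.04 in both fits), so the direction on WD rested on it. No gene was called without it on either diet, and 1 then had an unadjusted p below 0.05 on WD. On NLD 5 of the 24 were positive, with a median of -0.08, and with the thymocyte covariate 21 were, with a median of 0.13.

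The change with time was then compared between genotypes through the interaction. On WD the change was larger in EKO than in DKO for 3 of the 24 genes, Tyms, Pcna and Ccna2, which is 12.5%, and smaller for none. Of all tested genes it was larger for 7.73% and smaller for 1.24%. The difference was 0.98 ± 0.24 for Pcna (SE, limma adjusted p = 0.0113) and 1.64 ± 0.48 for Ccna2 (SE, limma adjusted p = 0.0390) on the log2 scale. Without DKO WD 6-week replicate 3 the difference was 0.73 for Pcna (limma adjusted p = 0.0143) and 1.11 for Ccna2, which no longer passed (limma adjusted p = 0.0601), and Tyms and Pcna were the 2 genes called. Without DKO WD 6-week replicate 2, 6 were called. On NLD the change was larger in EKO for Tyms alone, by 1.32 ± 0.15 (SE, limma adjusted p = 4.89e-06), and for 3.13% of all tested genes, and smaller for 0.739%. Mcm7 and Ube2c were added without DKO WD 6-week replicate 3, which gave 3, and 2 were called without EKO NLD 22-week replicate 3. The interaction of diet and time passed for none of the 24 genes in either genotype by limma, with an unadjusted p below 0.05 for 1 in EKO and none in DKO. Of all tested genes 21.6% passed in EKO and 0.0389% in DKO. In EKO 1 gene, Prc1, passed without DKO WD 6-week replicate 3.

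At 6 weeks none of the 24 genes passed in any comparison by limma. For EKO over DKO none had an unadjusted p below 0.05 on either diet, and 0.148% of all tested genes passed on WD and 0.14% on NLD. None of the 36 genes was higher in every EKO library on WD, against 7.31% of the background, and 3 were on NLD, Aurka, Bub1 and Melk, against 3.79%. On WD the DKO group holds DKO WD 6-week replicate 3, above its group mates for all 36 genes, so that count was nearly fixed by it. For WD over NLD in EKO none had an unadjusted p below 0.05 and 0.335% of all tested genes passed. Here 3 of the 36, Aurkb, Plk1 and Cdc20, were higher without overlap, against 11.1% of the background, and Melk was lower. For WD over NLD in DKO 7 had an unadjusted p below 0.05, all higher, with 5.2% of all tested genes passing in either direction, and 4 of the 36 were higher without overlap, against 9.01% of the background. These too rested on DKO WD 6-week replicate 3, without which none was higher and 2 were lower at an unadjusted p below 0.05, and the median over the 24 genes was -0.02 in place of 0.44. Without DKO WD 6-week replicate 2, 1 gene passed. For EKO over DKO on WD the median over the 24 genes was -0.20 with replicate 3 and 0.23 without it. The interaction of diet and genotype at 6 weeks passed for none, with 1 gene lower at an unadjusted p below 0.05, and for 0.0311% of all tested genes.

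Other cell cycle genes were counted from lists taken from general knowledge. Of 60 other mitotic genes 20 were tested, and 5 rose and none fell in EKO over DKO on WD at 22 weeks, with a median log2 fold change of 0.50. Mad2l1, of the spindle checkpoint, averaged 4.07 FPKM in EKO and 1.66 FPKM in DKO, with a log2 fold change of 0.94 ± 0.25 (SE, limma adjusted p = 0.0120). Ncapg2, a condensin subunit, averaged 1.94 FPKM in EKO and 1.13 FPKM in DKO, with a log2 fold change of 0.47 ± 0.13 (SE, limma adjusted p = 0.0138). In that comparison 18.5% of all tested genes rose. On NLD none of the 20 rose, and without DKO WD 6-week replicate 3 the counts were 7 on WD and 3 on NLD. Of 50 other replication genes 35 were tested, and 4 rose on WD, Rfc3, Pold3, Gins2 and Cdt1, and 1 on NLD, Rfc5. Both shares were below those of all tested genes, 18.5% on WD and 6.4% on NLD. Between 22 and 6 weeks in EKO, 9 of the 35 rose on NLD and 2 on WD, where Pold2 fell. Among all tested genes 25.4% rose on NLD and 14.8% on WD, so both counts were near or below the background. Rfc3, of the clamp loader, averaged 5.15 FPKM at 22 weeks and 2.69 FPKM at 6 weeks on WD, with a log2 fold change of 0.75 ± 0.16 (SE, limma adjusted p = 0.00215).

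Upstream regulators were counted likewise. Of 20 genes of the RB, E2F and MuvB list 16 were tested, and 5 rose on WD and 3 on NLD in EKO over DKO at 22 weeks, with none falling, beside 18.5% on WD and 6.4% on NLD of all tested genes. E2f1, which activates replication genes, averaged 5.40 FPKM in EKO and 1.73 FPKM in DKO on WD, with a log2 fold change of 1.24 ± 0.22 (SE, limma adjusted p = 0.000406), and 3.37 FPKM in EKO and 1.65 FPKM in DKO on NLD, with a log2 fold change of 0.70 ± 0.20 (SE, limma adjusted p = 0.0352). Lin37, a MuvB subunit, averaged 14.3 FPKM in EKO and 6.66 FPKM in DKO on NLD, with a log2 fold change of 1.00 ± 0.11 (SE, limma adjusted p = 2.86e-06). Of 9 G1 cyclins and their kinases 6 were tested, and Cdk4 rose on WD, averaging 47.1 FPKM in EKO and 31.6 FPKM in DKO, with a log2 fold change of 0.57 ± 0.11 (SE, limma adjusted p = 0.00109). None of the 6 passed on NLD by limma. Of 7 CDK inhibitors 6 were tested, and Cdkn1c, which restrains G1 kinases, rose on WD, averaging 24.5 FPKM in EKO and 12.7 FPKM in DKO, with a log2 fold change of 0.91 ± 0.24 (SE, limma adjusted p = 0.00951). Single calls among 6 tested genes, as for Cdk4 and Cdkn1c, do not exceed the 18.5% of all tested genes. For the RB, E2F and MuvB list the median log2 fold change was 0.15 on WD and 0.16 on NLD, against 0.10 and 0.08 over all tested genes.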

How the data were processed

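RNA-seq of 25 aorta libraries (50 nt unpaired reads, RNA integrity number of at least 7) was processed by the authors on mm10. The submitters' processing notes name Cuffdiff, SAMtools 0.1.19, TopHat 1.3.2 and Bowtie 0.12.8. The deposited table holds FPKM values per gene, with no counts, so count models were not used and depth is unknown. Members and lists were chosen with earlier results of these data known. Zeros in the partial library were taken as missing. Genes averaging 1 FPKM or more were fitted as log2(FPKM + 1) with limma 3.58.1 in R 4.3.3, with 8 group means, a mean-variance trend and robust moderation, and p-values were adjusted by Benjamini-Hochberg over 12849 genes. There were 12 comparisons and 6 tests of a difference between comparisons. The fit was tested on simulated data. No column of a sample outside the series was present.

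Genes were named by a rule: all 36 are accounted for, up to 3 called genes with the smallest adjusted p per role, Mki67, Top2a, Pcna, Ccnb1 and Cdk1 always, up to 4 genes of each other cell cycle list, and the 2 marker genes of the highest mean per list. Other genes given with values were chosen after these were seen. Fold changes on log2(FPKM + 1) understate those of low genes. Alternatives were pseudocounts of 0.1 and 5, no filter, median-ratio rescaling, zeros kept, a replicate block and leaving out each library of the compared groups. The thymocyte covariate (log2 of 1 plus the sum of 10 genes) and the omission of DKO WD 6-week replicate 3 from every comparison were added after seeing the data.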

Additional observations from a re-analysis of the deposited data

Results flagged for a closer look

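Over the 36 genes, the 4 DKO NLD 6-week libraries held 1 value far from the rest of its group: Mcm6 in replicate 2, the lowest at 9.43 FPKM against a highest of 13.2 FPKM, with a gap of 0.836 of the range to its neighbour, above Dixon's critical value for 4 samples. Chance flags about 1 in 20 such groups. The effect of time differed between EKO and DKO by a limma interaction for Tyms on NLD, by 1.32 on the log2 scale, and on WD for Tyms by 1.298, for Pcna by 0.98 and for Ccna2 by 1.64.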

How the results depend on the processing

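The 18 counts of called genes were recomputed under each alternative. With zeros of the partial library kept, 0 genes were called for EKO over DKO at 22 weeks on WD and on NLD, for WD over NLD in EKO at 22 weeks, for 22 over 6 weeks in EKO on WD and for time by genotype on both diets, and 1 for 22 over 6 weeks in EKO on NLD. That setting also turned the log2 fold change of Pcna to -1.03 (EKO over DKO, WD, 22 weeks), -1.47 (WD over NLD, EKO, 22 weeks), -1.10 (22 over 6 weeks, EKO, WD) and -0.998 (time by genotype, WD), and that of Mki67 in EKO over DKO on WD at 22 weeks to -0.10, since Pcna and Mki67 are listed at 0 there. For WD over NLD in EKO at 22 weeks the count was 0 with a pseudocount of 0.1, with no filter and with the replicate block. A pseudocount of 5 gave 5 for time by genotype on WD. The thymocyte covariate gave 2 for EKO over DKO on NLD and 13 on WD at 22 weeks, 9 for WD over NLD in EKO at 22 weeks, 1 for WD over NLD in DKO at 6 weeks, 14 for 22 over 6 weeks in EKO on WD, 5 for time by genotype on WD and 8 for diet by time in EKO. Median-ratio rescaling over 4754 genes kept every count within 1.5 times. The causes were not tested, apart from the zeros.

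Each library of the compared groups was left out in turn. The share of all tested genes is not given for these fits, so the counts show only how the calls moved. For EKO over DKO at 22 weeks this gave 2 to 4 called genes on NLD and 2 to 5 on WD. WD over NLD had 0 to 4 in EKO at 22 weeks and 0 to 1 in DKO at 6 weeks. For 22 over 6 weeks in EKO the counts were 3 to 7 on NLD and 2 to 7 on WD. Time by genotype had 1 to 2 on NLD and 2 to 6 on WD, and diet by time in EKO had 0. Omitting DKO WD 6-week replicate 3, outside the compared groups, gave 7 on NLD and 12 on WD for EKO over DKO at 22 weeks. It gave 7 on NLD and 11 on WD for 22 over 6 weeks in EKO, and 1 for diet by time in EKO. Replicate numbers did not pair libraries: over 84 same-numbered pairs the deviations correlated at a median of 0.03 (-0.39 to 0.41), and 7 of 25 libraries correlated best with their own number. With the replicate block the other counts stayed within 1.5 times. Of the recomputed fold changes of single genes, 310 kept direction and side of the threshold, 99 lost the call, 1 gained it and 5 reversed. Rescaling changed the split of all higher and lower calls for 22 over 6 weeks in EKO on NLD to 2228 and 2147, against 3267 and 1441 as deposited, and for EKO over DKO on WD at 22 weeks to 1627 and 565, against 2383 and 375. It also moved the median log2 fold change of all tested genes to 0.00 for 22 over 6 weeks in EKO on NLD, against 0.12 as deposited, and that of the 24 genes to 0.35, against 0.46.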
